A study of Mus musculus with 8 samples.

Results

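Calprotectin is the pair of calcium-binding proteins S100A8 and S100A9, and the other genes described here encode granule or secreted proteins best known from granulocytes. The genes were S100a8, S100a9, Lcn2, Ngp, Camp, Ltf, Retnlg, Mmp8, Mmp9 and Chil3, each taken at every array probe set annotated with its symbol alone. Of these 10 genes, 9 were measured, at 10 of 45037 probe sets, among 18193 genes on the array. Mmp9 had 2 probe sets and the other measured genes 1 each. No probe set carried the symbol Retnlg alone, and that gene was not analysed here. A further probe set, shared by Chil3 and Chil4, falls outside the choice and is given with Chil3.

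The arrays, 4 a group, held RNA of trigeminal ganglia from daDREAM transgenic and control mice, labelled as adult males of strain C57B/6XCBA. No treatment of either group was named in the labels. DREAM represses transcription, binds calcium and is encoded by Kcnip3, and daDREAM is a constitutively active mutant of it. All transgenic titles carry tg16. The sources used here give neither the transgene's promoter nor whether an array held 1 animal or a pool, so a p-value speaks only of the spread among these 8 arrays. The study's title places DREAM in pain mechanisms of this ganglion. Values are log2 expression from RMA (robust multi-array average), which evens out the distribution of all arrays, so a difference is relative to the average gene. Differences are daDREAM minus control, errors after ± are SDs over n = 4 arrays a group, and a gene passed the test at a limma adjusted p under 0.05.

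Granulocytes, of which neutrophils are the most common, store antimicrobial proteins in granules and are few in healthy nervous tissue, although blood in the vessels of a dissected ganglion carries them. S100A8 and S100A9 make up much of the neutrophil's cytosolic protein, hold zinc and manganese away from microbes, and signal through the receptor TLR4 when released. Lipocalin 2 and lactoferrin withhold iron, cathelicidin and neutrophilic granule protein belong to the cathelicidin-like family, and the collagenase MMP8 and the gelatinase MMP9 cut matrix. Several of these genes are also active outside granulocytes: Lcn2 is known from reactive astrocytes and epithelia, and Chil3 (Ym1) from macrophages.

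The promoters of the 3 genes that passed the test are shown because DREAM binds DNA at a short core sequence. They are the 250 bases before each gene's start in RefSeq, build GRCm38.p6, a table in which 9 of the 10 genes were found. Capitals mark GTCA, the core of the DREAM response element, or TTNNGNAA, a form of the C/EBP motif known from myeloid genes, on either strand, and no copies of the 2 motifs overlapped.
S100a8, chr3:90668821-90669070, plus strand: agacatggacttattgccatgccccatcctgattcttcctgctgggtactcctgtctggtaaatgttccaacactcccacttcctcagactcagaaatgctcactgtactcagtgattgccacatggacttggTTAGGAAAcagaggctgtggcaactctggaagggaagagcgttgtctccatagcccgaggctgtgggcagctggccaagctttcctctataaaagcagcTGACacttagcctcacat
S100a9, chr3:90695722-90695971, minus strand: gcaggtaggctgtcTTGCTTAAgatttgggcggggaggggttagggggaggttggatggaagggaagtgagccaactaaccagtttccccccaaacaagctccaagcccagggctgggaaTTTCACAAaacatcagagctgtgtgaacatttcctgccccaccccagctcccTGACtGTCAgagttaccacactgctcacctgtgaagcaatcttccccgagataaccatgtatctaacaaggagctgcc
Lcn2, chr2:32387740-32387989, minus strand: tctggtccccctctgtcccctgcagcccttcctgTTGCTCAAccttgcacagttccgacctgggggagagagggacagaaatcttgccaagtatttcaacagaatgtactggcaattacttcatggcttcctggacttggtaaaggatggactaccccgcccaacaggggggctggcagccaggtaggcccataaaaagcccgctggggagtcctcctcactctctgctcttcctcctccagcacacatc

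The S100a8 promoter held 1 copy of GTCA, on the minus strand and beginning 18 bases before the start, and S100a9 held 2 copies, beginning 78 and 73 bases before it. The Lcn2 window held 0. Of 32851 promoters of this length in the table, 80.2% held at least 1 copy and 50.1% at least 2, so a match of this short core is the common case. TTNNGNAA was present once in S100a8, at 2 places in S100a9 and once in Lcn2. Of all promoters, 36.8% held at least 1 copy of it and 12.2% at least 2. A copy of either motif describes these letters and is no evidence of binding.

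The calprotectin genes rose in transgenic ganglia, each to about double its control level, and Lcn2 rose by less. These 3 of the 9 measured genes passed the test as higher and 0 as lower, where 0.984% of all genes passed as higher and 2.00% in either direction. The remaining 6 genes did not pass, with differences between -0.13 and 0.37. The median difference of the 9 genes was 0.25, against 0.00 over all genes. Groups did not overlap in the same 3 genes, daDREAM higher each time, while groups were apart in either direction in 10.7% of all genes. A tissue with more cells of a type and a tissue with more RNA per cell cannot be told apart in such bulk samples.

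**Figure D1:**
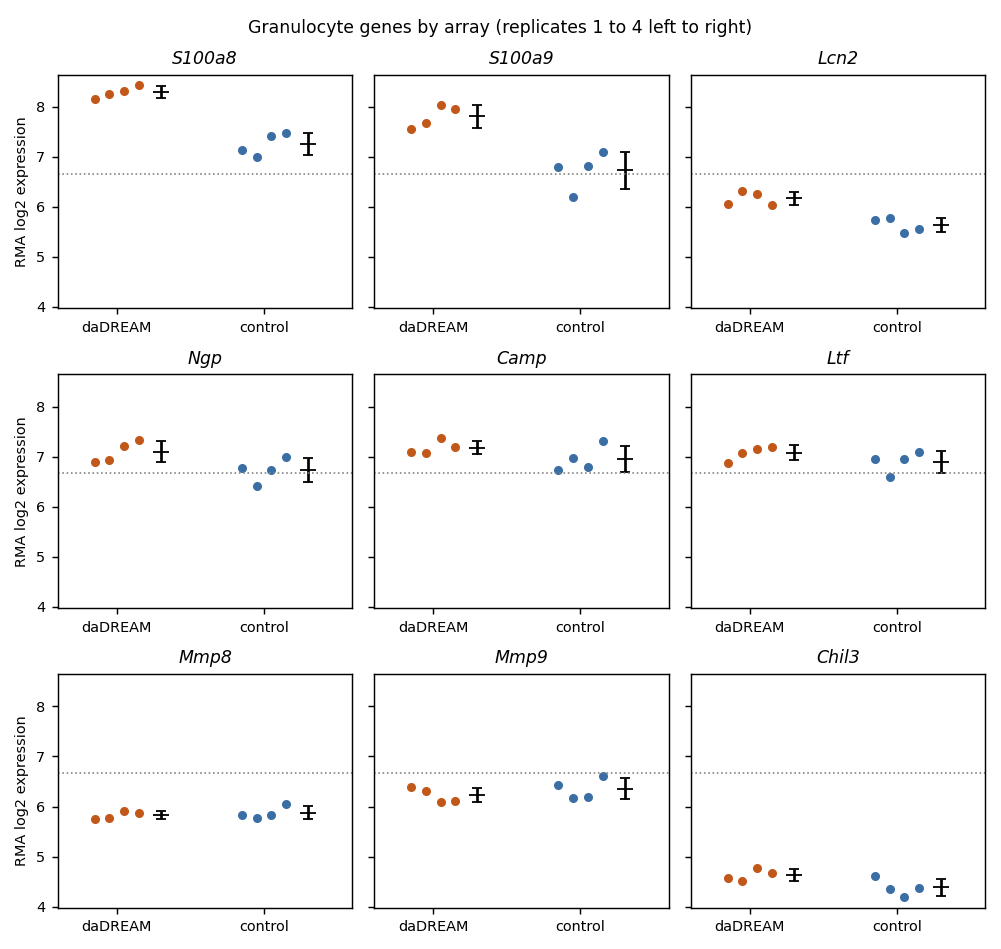
RMA log2 expression (y axis) of the 9 measured genes in each array, daDREAM arrays in orange and control arrays in blue, with mean and SD (bars) beside each group of 4. The dotted line is the background level of 6.66. The groups are apart for S100a8, S100a9 and Lcn2, and Lcn2, Mmp8, Mmp9 and Chil3 lie below the line.

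S100a8, the smaller calprotectin subunit, read 8.15, 8.25, 8.32 and 8.43 on daDREAM arrays, against 7.14, 7, 7.41 and 7.48 on control arrays. Every transgenic value stood above every control value, with a gap wider than the range within the transgenic group. The means were 8.29 ± 0.12 in daDREAM and 7.26 ± 0.23 in control ganglia, a 2.04-fold rise (difference 1.03, 95% interval 0.79 to 1.27, limma adjusted p = 3.82e-04). Among all genes it ranked 60 by p and 32 by the size of an increase. The probe set's suffix marks it as one that can also bind related transcripts.

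S100a9, which forms the heterodimer with S100a8, read 7.56, 7.68, 8.03 and 7.95 on daDREAM arrays, against 6.80, 6.20, 6.82 and 7.09 on control arrays. Again the groups were apart, and control replicate 2 stood below the other controls. The means were 7.81 ± 0.22 in daDREAM and 6.73 ± 0.38 in control ganglia, a 2.11-fold rise (difference 1.08, 95% interval 0.70 to 1.45, limma adjusted p = 0.00630). Without control replicate 2 the difference was 0.90. The control mean lay just above the background level of 6.66, and control replicate 2 lay below it. The size of the fold change is therefore less certain than the interval shows. The intervals of the subunits overlapped over most of their length.

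Lcn2, the gene of the siderophore-binding lipocalin 2, read 6.06, 6.31, 6.26 and 6.04 on daDREAM arrays, against 5.73, 5.77, 5.47 and 5.56 on control arrays. The means were 6.17 ± 0.14 in daDREAM and 5.63 ± 0.14 in control ganglia, a 1.45-fold rise (difference 0.54, 95% interval 0.33 to 0.74, limma adjusted p = 0.0117). Both means lay below 6.66, the 95th percentile of 44 probe sets for odorant receptors, genes not expected in a ganglion, which is used here as the level near background. The size of a fold change is uncertain at that level.

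The calls depended in part on which arrays were kept. Leaving out any single array kept all 3 genes past the test. For Lcn2 this held only narrowly, with a limma adjusted p of 0.0497 without daDREAM replicate 2 and 0.0499 without daDREAM replicate 3. Without control replicate 3 and daDREAM replicates 3 and 4, which read highest for Gh, S100a8 passed at a difference of 0.99 (limma adjusted p = 0.0323). S100a9, at 0.92, and Lcn2, at 0.50, did not pass there (limma adjusted p = 0.187 and 0.189). Without control replicates 1 and 3, the arrays with the most Acta1, S100a8 alone passed, S100a9 being at 1.16 (adjusted p = 0.0619) and Lcn2 at 0.50 (adjusted p = 0.106). Lcn2 also missed the threshold without the arrays with Xist signal (0.46, adjusted p = 0.0922) and without those with the most 18S signal (0.55, adjusted p = 0.0765). Leaving out these sets of arrays also lowered the number of all genes past the test, from 364 to 98, 171, 213 and 227 in the order given. Fewer arrays and the signal left out cannot be told apart as the reason for a lost call. An unequal-variance test per gene called 0 of the 9 genes, and 49 of all genes.

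**Figure D2:**
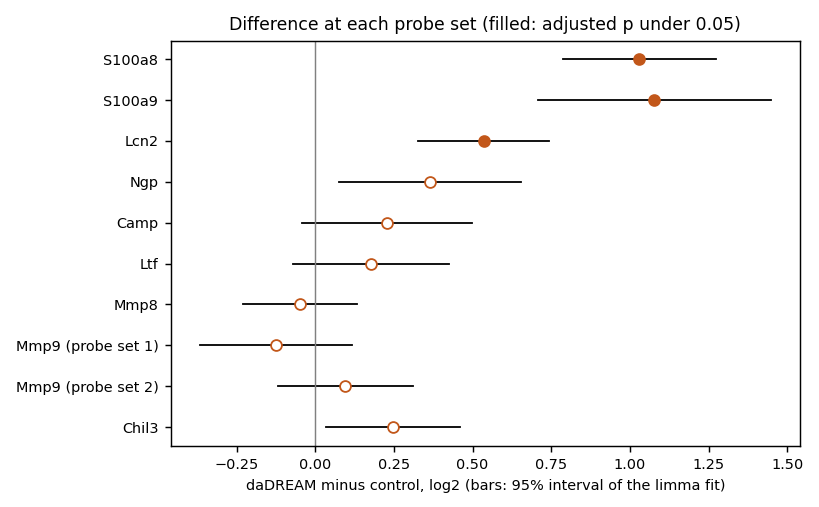
Difference between daDREAM and control means on the log2 scale (x axis) at each of the 10 probe sets (y axis), with 95% intervals of the limma fit over all probe sets. Filled points passed at an adjusted p under 0.05. The intervals of S100a8, S100a9 and Lcn2 lie well above 0, and those of Camp, Ltf, Mmp8 and Mmp9 span it.

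Among the cathelicidin-like genes, Ngp, which encodes neutrophilic granule protein, read 6.90, 6.94, 7.22 and 7.33 on daDREAM arrays, against 6.78, 6.41, 6.74 and 7 on control arrays. The groups overlapped through control replicate 4 alone, which exceeded daDREAM replicates 1 and 2. The difference was 0.37 (95% interval 0.08 to 0.65, limma adjusted p = 0.189), so it did not pass. Camp, the gene of cathelicidin, read 7.09, 7.07, 7.37 and 7.19 on daDREAM arrays, against 6.73, 6.97, 6.80 and 7.31 on control arrays. Its groups overlapped in the same way, control replicate 4 standing above 3 of the transgenic arrays. The difference was 0.23 (95% interval -0.04 to 0.50, limma adjusted p = 0.350).

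Ltf, which encodes the iron-binding lactoferrin of secondary granules, read 6.87, 7.08, 7.16 and 7.20 on daDREAM arrays, against 6.95, 6.59, 6.96 and 7.10 on control arrays. The groups overlapped, daDREAM replicate 1 lying below 3 of the controls. The difference was 0.18 (95% interval -0.07 to 0.43, limma adjusted p = 0.423), and 0.07 without control replicate 2, the lowest control. The upper bounds for Ngp, Camp and Ltf, at 0.65, 0.50 and 0.43, all lay under the lower bound of 0.70 for S100a9 and of 0.79 for S100a8. No test of the difference between genes was run.

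The protease genes gave no call. Mmp8, neutrophil collagenase, ranged from 5.75 to 5.91 on daDREAM arrays and from 5.77 to 6.06 on control arrays (difference -0.05, 95% interval -0.23 to 0.13, limma adjusted p = 0.792). Mmp9, gelatinase B, ranged from 6.10 to 6.40 on daDREAM arrays and from 6.18 to 6.61 on control arrays at its brighter probe set (difference -0.13, limma adjusted p = 0.567). The other Mmp9 probe set differed by 0.10 (limma adjusted p = 0.639 over probe sets), so the probe sets had opposite signs. All 3 probe sets read near background in both groups, where a change could be missed.

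Chil3, a chitinase-like lectin, was the dimmest member, with 4.57, 4.52, 4.77 and 4.67 on daDREAM arrays and 4.61, 4.36, 4.19 and 4.38 on control arrays. Only control replicate 1 reached the transgenic range. The difference was 0.25 (95% interval 0.04 to 0.46, limma adjusted p = 0.215), with both means near background. The probe set shared with Chil4 read 5.73 ± 0.02 in daDREAM and 5.54 ± 0.06 in control ganglia (difference 0.19, limma adjusted p = 0.168 over probe sets). There the groups did not overlap, but the test was not passed.

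Across arrays, several genes shared an order. Control replicate 4 was the highest control for S100a8, S100a9, Ngp, Camp, Ltf, Mmp8 and Mmp9, and control replicate 2 was the lowest control for these genes other than Camp. Within the transgenic group, replicate 1 was lowest for S100a8, S100a9, Ngp, Ltf and Mmp8, and replicate 3 or 4 was highest for these and for Camp. Lcn2 had another order, with replicate 2 the highest in both groups. After subtracting each gene's own mean, the 5 genes with at least 1 group mean above background averaged 0.11, 0.20, 0.42 and 0.42 on daDREAM replicates 1 to 4. On control replicates 1 to 4 they averaged -0.32, -0.57, -0.26 and -0.01.

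Values of other tissues by array stood as follows. Gh, the pituitary's growth hormone, read 10.66, 9.04, 12.50 and 13.43 on daDREAM replicates 1 to 4 and 10.31, 9.28, 11.15 and 9.08 on control replicates 1 to 4. The arrays with the highest granulocyte averages among transgenics were thus also high in Gh, whereas control replicate 4, the highest control, had the lowest Gh of its group. Gfap, the filament of astrocytes, read 10.77 to 11.24 on daDREAM arrays and 8.29 to 10.22 on control arrays, apart between the groups as for calprotectin, but lowest on control replicate 4. Acta1, of skeletal muscle, read 6.60 to 6.89 on daDREAM arrays and 6.73 to 9.40 on control arrays. Xist, which marks female tissue, read 11.51 on daDREAM replicate 4, and 10.20 and 11.72 on control replicates 3 and 4, against at most 6.49 on the rest, although the labels name males. The part of these tissues in the calprotectin result was not tested beyond leaving out the arrays above.

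**Figure D3:**
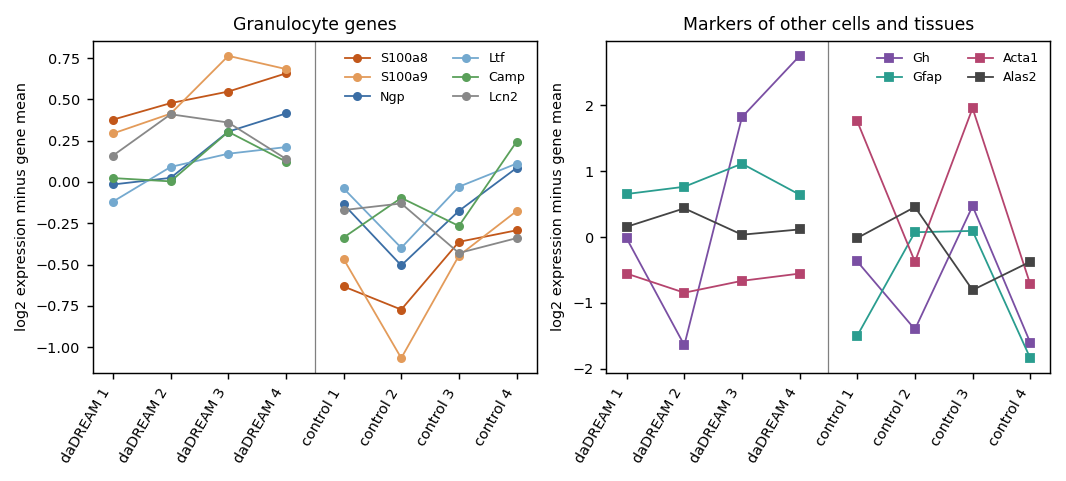
Log2 expression minus each gene's mean over the 8 arrays (y axis), by array (x axis), for 6 granulocyte genes (left) and for markers of pituitary (Gh), astrocytes (Gfap), muscle (Acta1) and red cells (Alas2) (right). Lines join the arrays of 1 group and carry no order. S100a8 and S100a9 are above their means on all daDREAM arrays and lowest on control replicate 2.

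The other genes of granulocytes gave no call. Of 44 listed, 36 were measured and 0 passed with limma in either direction, and the unequal-variance test also called 0. An unadjusted p under 0.05 was found for 4 of the 36, where 18.2% of all genes had one. Their median difference was -0.03, with 15 above 0, 20 below and 1 at 0, and 22 read near background in both groups. The summed linear signal of the list was 4501 to 4899 on daDREAM arrays and 4306 to 5022 on control arrays, so that the groups overlapped. The smallest p belonged to Cybb, the NADPH oxidase subunit of phagocytes, at 7.14 ± 0.31 in daDREAM and 7.65 ± 0.12 in control ganglia (difference -0.51, limma adjusted p = 0.0876). In 2 of the 36 the groups did not overlap, daDREAM being higher both times, against 10.7% of all genes apart in either direction. They were Ifitm6, an interferon-induced transmembrane gene, at 0.22, and Spi1, the myeloid transcription factor PU.1, at 0.21. Neither passed (limma adjusted p = 0.201 and 0.170).

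Of the markers of neutrophils, some read low and others above background. The chemokine receptor gene Cxcr2 averaged 5.80 in daDREAM and 6.03 in control ganglia, the integrin gene Itgam 5.64 and 5.47, and the surface protein gene Cd177 4.87 and 4.87, all near background. Of the primary granule genes, Mpo (myeloperoxidase) differed by -0.11 and Elane (neutrophil elastase) by -0.22, without passing (limma adjusted p = 0.537 and 0.226). Prtn3 and Ctsg, of the same granules, differed by 0.07 and 0.035, also without passing (limma adjusted p = 0.690 and 0.872). Prtn3 read above background, at 7.09 in daDREAM and 7.02 in control ganglia. Csf3r, the receptor for the growth factor of neutrophils, was above background at 6.95 in daDREAM and 7.02 in control ganglia (difference -0.07, limma adjusted p = 0.787). Among the 36 measured genes of the list, the largest difference above 0 was that of Pglyrp1. It read 6.73 in daDREAM and 6.48 in control ganglia (difference 0.25, limma adjusted p = 0.324), without passing. The largest below 0 was that of Cybb, at -0.51. Ly6g was not analysed here.

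Blood and macrophage markers gave no call with limma. Of red cell and platelet markers, 0 of 11 passed and 0 had an unadjusted p under 0.05, with Slc4a1, the red cell's anion exchanger, at 0.15 (adjusted p = 0.343). Alas2, of heme synthesis in red cells, read 8.77 to 9.17 on daDREAM arrays and 7.93 to 9.19 on control arrays. The probe set common to the beta globins read 14.18 to 14.26 on daDREAM arrays and 13.77 to 14.31 on control arrays, so globin RNA was bright on every array. Of macrophage and monocyte markers, 0 of 18 passed and 2 had an unadjusted p under 0.05, a share below the 18.2% of all genes, with the scavenger receptor gene Cd163 at -0.46 (adjusted p = 0.223). The unequal-variance test called 0 in each of these lists.

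Among receptors and adaptors for calprotectin and lipocalin 2, 1 of 10 measured genes fell and 9 did not pass. Over all genes 1.02% passed as lower. Ly96 encodes MD-2, the partner through which TLR4 recognises its ligands. It read 5.16, 5.16, 5.12 and 5.13 on daDREAM arrays, against 6.47, 6.28, 5.99 and 5.99 on control arrays, so the groups were apart. The means were 5.14 ± 0.02 in daDREAM and 6.18 ± 0.24 in control ganglia (difference -1.04, 95% interval -1.27 to -0.81, limma adjusted p = 2.42e-04). Both means were near background, where the size of a difference is uncertain, and Ly96 had no other probe set of its own. Tlr4 itself differed by -0.15 (adjusted p = 0.434) and the co-receptor gene Cd14 by -0.24 (adjusted p = 0.249).

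Of cytokines, their receptors and the factors that induce calprotectin or Lcn2, 0 of 17 passed with limma, 4 had an unadjusted p under 0.05 (18.2% of all genes had one), and the unequal-variance test called 0. In 14 of the 17 the difference was below 0, and the median was -0.10. Nfkbia, the NF-kB inhibitor that NF-kB itself induces, had the smallest p, at 11.13 ± 0.16 in daDREAM and 11.50 ± 0.16 in control ganglia (difference -0.37, adjusted p = 0.0927).

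**Figure D4:**
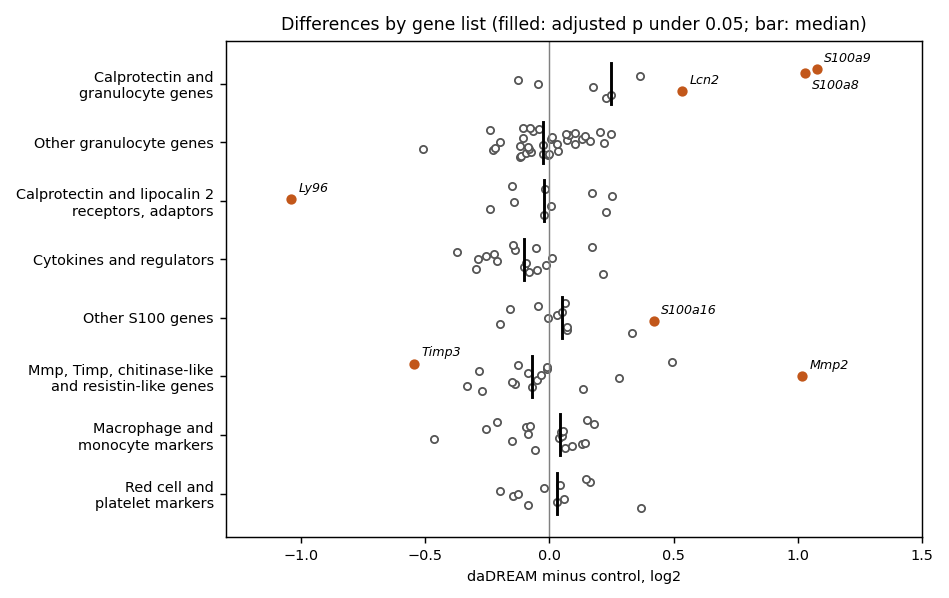
Difference between daDREAM and control means on the log2 scale (x axis) of each measured gene, by gene list (y axis), 1 point a gene and a bar at each list's median. Filled points passed at an adjusted p under 0.05. S100a8, S100a9 and Mmp2 lie near 1, Ly96 near -1, and most other genes between -0.5 and 0.5.

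Of the other S100 genes, 1 of 11 rose, where 0.984% of all genes passed as higher. S100a16 read 10.88 ± 0.10 in daDREAM and 10.46 ± 0.16 in control ganglia (difference 0.42, limma adjusted p = 0.0382), while its other probe set, at 0.27, did not pass (adjusted p = 0.123 over probe sets). S100a8 and S100a9 stand side by side on mouse chromosome 3 in a cluster of S100 genes. Of the 12 measured genes next to the pair, 6 on each side in RefSeq's order, S100a16 alone passed, and their median difference was -0.05. The nearest on the one side, S100a6, differed by -0.16 (adjusted p = 0.452).

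Among relatives of the protease, chitinase-like and resistin-like members, 1 of 17 rose and 1 fell. Over all genes 0.984% passed as higher and 1.02% as lower. Mmp2, gelatinase A, read 9.29, 9.06, 9.25 and 10.10 on daDREAM arrays, against 8.39, 8.80, 8.29 and 8.15 on control arrays, apart between the groups. The difference was 1.02 (95% interval 0.57 to 1.47, limma adjusted p = 0.0274), and the other Mmp2 probe set differed by 1.08 (adjusted p = 0.0104 over probe sets). Timp3, an inhibitor of these proteases, read 10.93 ± 0.09 in daDREAM and 11.48 ± 0.26 in control ganglia (difference -0.55, adjusted p = 0.0356). The remaining Timp3 probe sets differed by -0.24, 0.08 and 0.01, and none of these passed.

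Reactive glia also express Lcn2, and among 15 astrocyte and reactive glia genes 1 rose and 2 fell. Over all genes 0.984% passed as higher and 1.02% as lower. Differences were above 0 in 8 of the 15 and below 0 in 7. Gfap differed most, by 1.585 with the groups apart, without passing (limma adjusted p = 0.0660). Aqp4, the astrocytes' water channel, rose 1.69-fold (difference 0.76, limma adjusted p = 0.0173). The ferroxidase gene Cp fell by 0.63 on the log2 scale (adjusted p = 0.0176) and the chemokine gene Cxcl10 by 0.44 (adjusted p = 0.0276). Another of the 8 Cp probe sets passed as well, at -0.67. The summed signal of this list was 38732 to 41064 on daDREAM arrays and 31884 to 37997 on control arrays, without overlap. Its brightest gene, Fabp7, at 13.33 in daDREAM and 12.91 in control ganglia, is also listed among the ganglion markers. The sum is therefore not particular to astrocytes or reactive glia. The part of this list in the Lcn2 difference was not tested.

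The genes whose profile over the 8 arrays came closest to that of calprotectin were Eps8l1, Sox11, Fam227b, Spink10, F2r and Trim30a. Likeness was the root mean square difference from the mean of S100a8 and S100a9, each gene centred on its own mean. It was 0.14 for Eps8l1 and 0.21 for Trim30a on the log2 scale, against 0.58 for the median gene. A gene flat over the arrays would give 0.57. S100a8 and S100a9 each gave 0.08, but they make up the mean they are compared with, so that value is no yardstick. Eps8l1, of the EPS8 family that links receptors to actin, read 8.28 ± 0.11 in daDREAM and 7.28 ± 0.21 in control ganglia. F2r, the thrombin receptor gene, read 10.35 ± 0.06 in daDREAM and 9.61 ± 0.18 in control ganglia. Second probe sets of Eps8l1 (1.09) and F2r (0.62) also passed over probe sets, whereas those of Fam227b (-0.07) and Trim30a (-0.22) and the other 5 of Sox11 (-0.34 to 0.11) did not. By this measure Ngp ranked 75, Lcn2 129, Ltf 372, Camp 536 and Chil3 593 among all genes, whereas Mmp8 ranked 7204 and Mmp9 14358. Their values were 0.35, 0.38, 0.44, 0.46 and 0.46, and 0.57 and 0.63, far less close than Eps8l1.

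The labelled tissue showed its markers: the neuron genes Prph and Scn10a read 12.93 to 13.02 and 8.73 to 9.06 on daDREAM arrays, and 12.89 to 13.09 and 8.68 to 9.07 on control arrays. Of 15 ganglion markers 0 passed with limma and 1 had an unadjusted p under 0.05. Mast cell, eosinophil and basophil markers (13), pituitary (7), skeletal muscle (12), epithelial (13) and sex-linked markers (5) also gave 0 calls with limma, with 2, 0, 9, 3 and 1 at an unadjusted p under 0.05, and the unequal-variance test called 0 in all these lists. Against the 18.2% of all genes, the 9 of 12 muscle markers were a larger share. The ganglion, mast cell, pituitary, epithelial and sex-linked counts lay near or below it. Of the lists described further above, larger shares were found in the receptors and adaptors (4 of 10) and the astrocyte and reactive glia genes (7 of 15). The relatives of the protease, chitinase-like and resistin-like members also had a larger share (7 of 17). Of 12 lymphocyte markers 1 fell, where 1.02% of all genes passed as lower. It was Ighm, by 1.24 on the log2 scale (limma adjusted p = 1.97e-05). Ighm probe sets at -0.97 and -1.15 also passed over probe sets, and its remaining ones, at -0.275 to 0.09, did not. Kcnip3, the gene of DREAM, differed by 0.03 (adjusted p = 0.880), and the sources used here do not say whether its probe set covers the transgene.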

How the data were processed

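The samples were 8 Affymetrix Mouse Genome arrays of trigeminal ganglion RNA, 4 per group. Per the submitters' processing notes, the authors made the deposited log2 values per probe set with RMA in the affy package. The sources used here give no versions. RMA quantile-normalizes over all arrays, so shifts common to most genes are removed. They span 3.39 to 14.94 in steps of 2 decimals, and array medians lay between 7.09 and 7.13. The number of arrays limits the precision.

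Of 45101 probe sets, 64 Affymetrix controls were left out. Platform annotation gave 34945 a single symbol, 932 several and 9160 none. Where several probe sets had the same single symbol, the one with the highest mean over the arrays stood for the gene, leaving 18193 genes. Genes, and separately probe sets, were tested in R 4.3.3 with limma 3.58.1 (functions lmFit and eBayes, group as the only term, two-sided) with Benjamini-Hochberg adjustment over all of them. The test was tested on simulated data. Gene lists are described by counts and medians, with no set test.

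Members and lists were chosen with earlier results of these data known. Genes were named by rule: all members, in each other list up to 4 genes past the test or otherwise the gene with the smallest p, the 6 closest profiles, and tissue markers. Cxcr2, Itgam, Cd177, Csf3r, Mpo, Elane, Prtn3, Ctsg, Pglyrp1, Tlr4, Cd14 and S100a6 were named outside it, after their values were seen. The same holds for Alas2, Kcnip3, Ifitm6, Spi1 and the ganglion genes. Alternatives covered a filter on dim probe sets, array medians subtracted, quantile normalization repeated, the variance prior, an unequal-variance test, array weights, the replicate number as a block, other rules for a gene's probe set, a stricter threshold and leaving out arrays. Plots used Python 3.11.15 and matplotlib 3.10.9.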

Additional observations from a re-analysis of the deposited data

How the results depend on the processing

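The 3 members past the test numbered 0 with the unequal-variance test, 1 without the Gh-rich arrays and 1 without the Acta1-rich arrays; at probe sets the counts were 0 in the unequal-variance test and 1 without the Gh arrays. Under the other alternatives 2 or 3 genes passed, and 3 without each array in turn; at probe sets these counts were 2 to 4. The differences of S100a8, S100a9, Lcn2, Ngp, Camp, Ltf and Chil3 kept their sign in every alternative, with S100a8 at 0.94 to 1.17 and S100a9 at 0.90 to 1.30. Mmp8 turned to 0.0078 after renewed quantile normalization, 0.010 without the arrays with Xist signal and 0.022 without those with 18S signal, and ran from -0.082 to 0.014 over single arrays left out. Mmp9 turned to 0.042 without the 18S arrays. Other granulocyte genes past the test numbered 0 to 1 over single arrays left out, 1 with the replicate block and 1 without the Xist arrays, Cybb each time, as lower. The 364 genes past the test overall became 49 with the unequal-variance test, 697 with the probe set of highest SD, 181 at an adjusted p under 0.01, 98 without the Gh arrays, 171 without the Acta1 arrays, 213 without the Xist arrays, 227 without the 18S arrays and 229 to 349 without single arrays. With the replicate number as a block the count was 672, and 3 members passed; at probe sets 4 passed, Ngp in addition, whose adjusted p over genes was 0.0505. Deviations of same-numbered arrays correlated at 0.25, 0.01, 0.30 and 0.34, and not every array correlated best with its own number, so the numbers were not taken as pairs. The cause of these changes was not tested. Lcn2, Mmp8, Mmp9, Chil3 and Ly96 read near background, where the size of a difference is uncertain. The control means of S100a9 and Ngp lay just above that level.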
